A study of Homo sapiens with 6 samples.

Results

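The G2/M and mitosis genes described here are 36 genes of mitotic entry, chromosome segregation and cell division: mitotic cyclins, kinases, kinesins, and centromere and spindle genes. They were chosen by gene symbol. The platform annotation pairs 53 probes with these 36 symbols, and all 53 were detected above background (detection p under 0.05) on all 6 arrays. Tests across the whole table covered 15967 rows, of which 11498 were named genes, and the 36 genes are 36 of those. The cells were HCT116, an established human colorectal carcinoma cell line, grown in DMEM with fetal bovine serum. All groups stably expressed a short hairpin RNA (shRNA), which cells process into a small RNA that lowers a matching messenger RNA. The control group carried a non-silencing hairpin (NS shRNA), and the other groups carried PEA15 shRNA 1 or PEA15 shRNA 2, directed against PEA15, a small adaptor protein that binds the ERK kinases. Each group had 2 samples, each on its own Illumina expression array. The labels name no DNA damaging agent for any sample, so all values come from cells without a stated treatment. They do not say whether the stable lines were clones or pools, nor whether replicates were separate cultures, so the p-values reflect no more than array-to-array spread within a group, possibly a technical one.

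Between 41.1% and 43.0% of the 47323 probes were detected on an array, and r between arrays of the same group, taken over all rows, was 0.995. PEA15 itself read 8.97 and 9.15 (log2 level) under NS shRNA, 8.22 and 8.17 under shRNA 1 and 7.71 and 7.93 under shRNA 2. It fell with shRNA 2 by 1.23 ± 0.12 (log2, SE, limma adjusted p = 0.00573), whereas the shRNA 1 value of -0.86 ± 0.12 did not pass (adjusted p = 0.122). The shRNA 1 value passed in 5 of 15 alternatives (0.000218 to 0.427). Leaving out replicate 2 of the control ended the shRNA 2 call (adjusted p = 0.0745), as did leaving out replicate 1 of shRNA 2 (adjusted p = 0.0592). Of the markers listed for colorectal epithelium, 6 of 6 were detected on all arrays, EPCAM, KRT8 and KRT19 among them. The defining leukocyte genes PTPRC and CD3E, the collagen gene COL1A2 and all 4 endothelial markers were detected on no array. COL1A1, LYZ and CD14 were detected on all 6 arrays, at log2 levels of at most 5.74, and DCN on 2. The epithelial marker CLDN4 was as low, at 4.87 to 5.24, and KRT18 read 6.68 to 7.19.

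Entry into mitosis is driven by the kinase CDK1 bound to cyclin A or cyclin B, once CDC25 phosphatases remove the inhibitory phosphates that WEE1 and PKMYT1 place on CDK1. Polo-like and Aurora kinases then build the spindle, and the spindle assembly checkpoint holds back the ubiquitin ligase APC/C and its activator CDC20 until every kinetochore is attached to microtubules. The messenger RNAs of most of these genes accumulate in late S phase, G2 and mitosis. Their promoters commonly carry an element called the cell cycle genes homology region (CHR), bound by the MuvB complex, which joins B-MYB and FOXM1 in activation and the DREAM complex in repression, together with CCAAT boxes bound by NF-Y. DNA damage is known to lower this programme through p53, p21 and DREAM. In RNA from a whole culture, fewer cells in G2 or mitosis and less of these RNAs per cell cannot be told apart.

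Promoters of 30 of the 36 genes, 40 in all because some genes have several, were found in a table of RefSeq promoters of build GRCh38.p14 that covers 250 bases before to 50 bases after each start site. The search looked on both strands for TTTGAA (a CHR), for the CHR variant TTCGAA, and for CCAAT. The table held no promoter for FOXM1, TPX2, TTK, AURKA, BIRC5 and UBE2C, which are named only. TTTGAA lay in 23 of the 40 promoters (57.5%), against 15.2% of all 35116 promoters of the same length. CCAAT lay in 31 of 40 (77.5%), against 34.6% of all promoters, and both lay together in 20 of 40, against 5.9%. The variant TTCGAA lay in 2 of 40, against 1.45% of all. The matches also had preferred places: 14 of 34 TTTGAA matches lay in the last 50 bases before the start site. That is 35.0 matches per 100 promoters, against 2.62 over all promoters. CCAAT was most frequent between 100 and 50 bases before the start site, at 85.0 matches per 100 promoters against 14.4. Over all promoters CCAAT was also most frequent there, with 3.93 to 9.37 in the other stretches of 50 bases, so that place was not particular to these genes. These matches are descriptions of the letters and not measured binding sites.

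**Figure D1:**
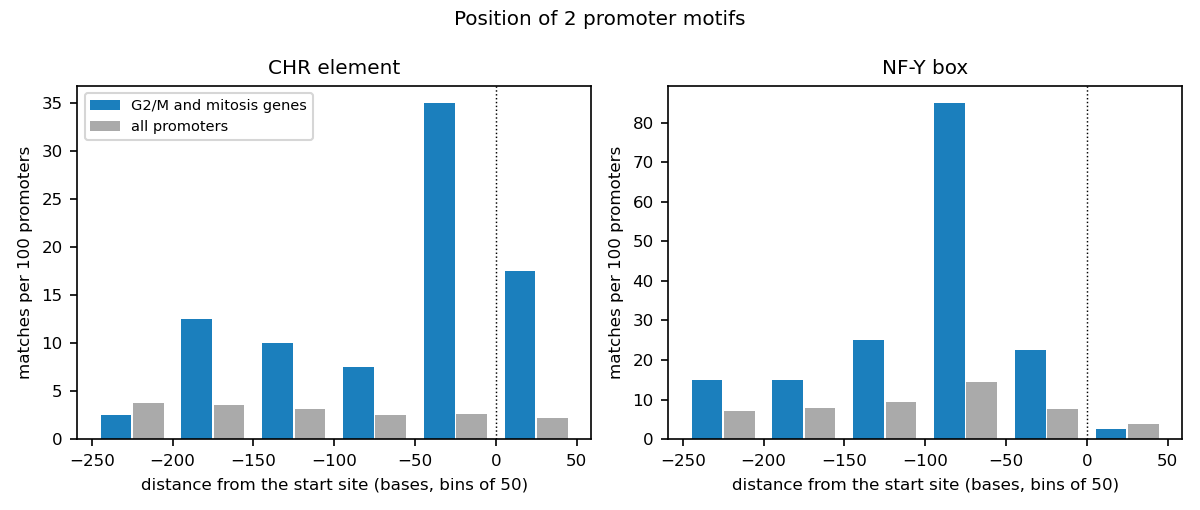
Matches per 100 promoters (vertical axis) of the CHR element (left) and the NF-Y box (right) by distance from the start site in bases (horizontal axis, bins of 50), for the 40 promoters of the G2/M and mitosis genes (blue) and for all 35116 promoters (grey). The blue bars peak in the last 50 bases before the start for the CHR (14 of 34 matches) and at 85.0 between 100 and 50 bases before it for the NF-Y box.

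Promoters of 4 genes are printed because they share these elements while their RNA levels lay on different sides of the control. CDC20 read lower with shRNA 2, PRC1 read higher with shRNA 1, PLK1 read higher with both hairpins and MKI67 read lower with both, none of them past the test over all rows. Each is written 5′ to 3′ on the gene's strand, with matches of the CHR, its variant and the CCAAT box, on either strand, in capitals. The regions are chr1:43358731-43359030 (plus strand) for CDC20, chr15:90994486-90994785 (minus strand) for PRC1, chr16:23678639-23678938 (plus strand) for PLK1 and chr10:128126374-128126673 (minus strand) for MKI67, all in GRCh38.p14.
CDC20: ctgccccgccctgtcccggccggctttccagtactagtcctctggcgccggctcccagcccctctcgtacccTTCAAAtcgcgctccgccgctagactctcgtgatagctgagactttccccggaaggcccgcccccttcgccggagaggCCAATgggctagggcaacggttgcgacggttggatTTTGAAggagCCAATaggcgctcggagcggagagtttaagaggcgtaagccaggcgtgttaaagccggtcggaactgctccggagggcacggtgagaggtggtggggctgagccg
PRC1: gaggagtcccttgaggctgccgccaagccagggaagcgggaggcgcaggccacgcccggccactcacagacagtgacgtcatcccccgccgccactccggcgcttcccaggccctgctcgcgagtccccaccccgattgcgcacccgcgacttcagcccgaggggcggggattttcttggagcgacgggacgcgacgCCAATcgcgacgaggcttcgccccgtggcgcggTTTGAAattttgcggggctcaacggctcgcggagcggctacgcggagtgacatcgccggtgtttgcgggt
PLK1: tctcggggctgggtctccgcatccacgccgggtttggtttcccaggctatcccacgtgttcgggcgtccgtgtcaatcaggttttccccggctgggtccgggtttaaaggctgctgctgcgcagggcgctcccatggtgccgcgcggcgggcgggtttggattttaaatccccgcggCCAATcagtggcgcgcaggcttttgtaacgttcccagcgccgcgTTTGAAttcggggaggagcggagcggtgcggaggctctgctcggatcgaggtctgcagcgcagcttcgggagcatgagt
MKI67: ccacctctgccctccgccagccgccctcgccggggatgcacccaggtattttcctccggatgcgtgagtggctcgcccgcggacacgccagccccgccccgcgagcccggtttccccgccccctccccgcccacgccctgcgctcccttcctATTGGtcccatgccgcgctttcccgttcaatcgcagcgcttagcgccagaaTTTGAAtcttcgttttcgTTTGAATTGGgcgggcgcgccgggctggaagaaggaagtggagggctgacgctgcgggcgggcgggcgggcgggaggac
In PLK1 and PRC1 a CCAAT box, beginning 73 and 53 bases before the start site, is followed by TTTGAA at 29 and 20 bases before it. CDC20 holds TTTGAA at 178 and 65 bases and CCAAT at 100 and 55 bases before its start. MKI67 holds TTTGAA at 47 and 29 bases and CCAAT at 98 and 24 bases, and the matches at 29 and 24 bases share 1 base. The 20 genes with TTTGAA had a median change of 0.034 with shRNA 1 and -0.071 with shRNA 2, and the 10 genes with a promoter but without it 0.083 and 0.070 (log2, no test made). Between hairpins the order was the opposite, at -0.076 with TTTGAA and -0.10 without.

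The first question was whether either PEA15 hairpin changed the mitotic programme against the non-silencing hairpin. No gene of the 36 passed the test with shRNA 1, and none passed with shRNA 2. The test was limma's moderated test on log2 levels, two-sided, with the Benjamini-Hochberg adjustment taken across the 15967 rows and a threshold of 0.05. Both comparisons use the same 2 NS arrays. Over all rows it called 0.0188% (3 rows) with shRNA 1 and 1.7% (271 rows) with shRNA 2, so at the whole-table rate fewer than 1 of 36 genes would be called in either comparison. An unadjusted p under 0.05 was reached by 2 of the 36 genes with shRNA 1, against 11.7% of all rows, and by 8 of 36 with shRNA 2, against 17.9%. With shRNA 1 these were PLK1 and PRC1, both higher. With shRNA 2 they were PLK1, CDC25C and CENPA, higher, and FOXM1, CDC20, MKI67, KIF11 and PTTG1, lower.

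The 36 genes had a median change of 0.037 with shRNA 1, with 23 above 0, and of -0.052 with shRNA 2, with 15 above 0. Over all rows the medians were -0.0036 and -0.0060. The whole range over the 36 genes ran from -0.24 (KIF11) to 0.29 (PLK1) with shRNA 1 and from -0.47 (FOXM1) to 0.35 (PLK1) with shRNA 2. None reached a 1.5-fold difference in either direction. The 95% confidence interval of the change, not adjusted over genes, lay within 1.5-fold on both sides for 35 of the 36 genes with shRNA 1, against 82.5% of all rows, and for 30 of 36 with shRNA 2, against 76.3%. It lay within 2-fold for all 36 genes in both comparisons. The interval that reached past 1.5-fold with shRNA 1 was that of BUB1B (0.904-fold to 1.54-fold). With shRNA 2 those of CDC25C, PLK1, BUB1B, MKI67, KIF11 and FOXM1 did, the widest downward being FOXM1, from 0.600 to 0.863 of the control. Changes of dim probes depend on the background step: without background correction the PLK1 values were 0.14 and 0.17, and the MKI67 values -0.13 and -0.21, in place of -0.22 and -0.36.

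**Figure D2:**
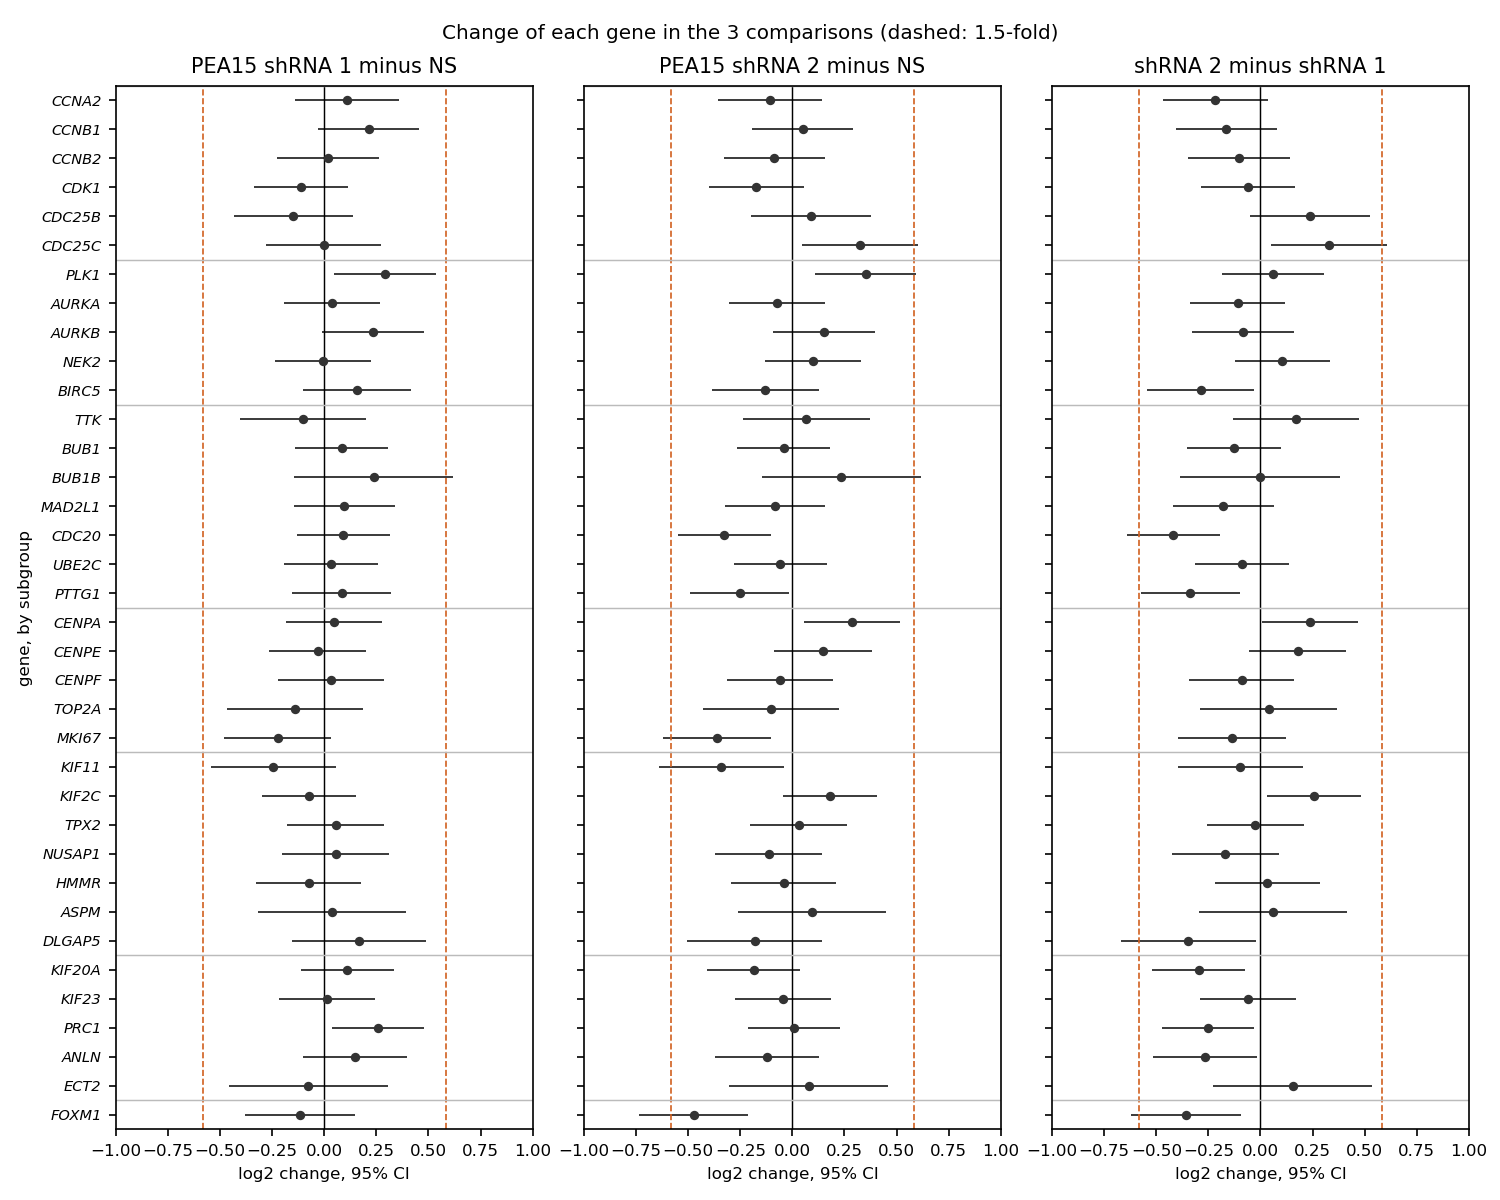
Change of each of the 36 genes (rows, ordered by role, with grey lines between roles) as log2 difference with its 95% confidence interval (horizontal axis), for shRNA 1 minus NS, shRNA 2 minus NS and shRNA 2 minus shRNA 1; n = 2 arrays a group. Every point lies inside the dashed lines at 1.5-fold, and the lowest interval ends at -0.74 (FOXM1, shRNA 2 minus NS).

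The arrays of a hairpin group lay wholly above or below those of the control for 16 of the 36 genes with shRNA 1 (44.4%, 11 of them higher), against 42.2% of all rows. With shRNA 2 this held for 18 of 36 (11 of them lower), against 50.1%. Both shares were near those of the whole table. Within groups the 2 arrays differed visibly for some genes. The largest gap between 2 arrays of a group exceeded the whole range of the 3 group means for 13 of the 36 genes. For ECT2, the exchange factor that activates RhoA for cytokinesis, the gap exceeded that range in all 3 groups. Its arrays differed by 0.34 in the NS group, 0.24 with shRNA 1 and 0.32 with shRNA 2, while its group means spanned 0.15. ASPM, a spindle pole protein, had gaps of 0.34, 0.077 and 0.31 against a span of 0.096, and TOP2A, the topoisomerase that untangles chromosomes, gaps of 0.23, 0.098 and 0.32 against 0.14.

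**Figure D3:**
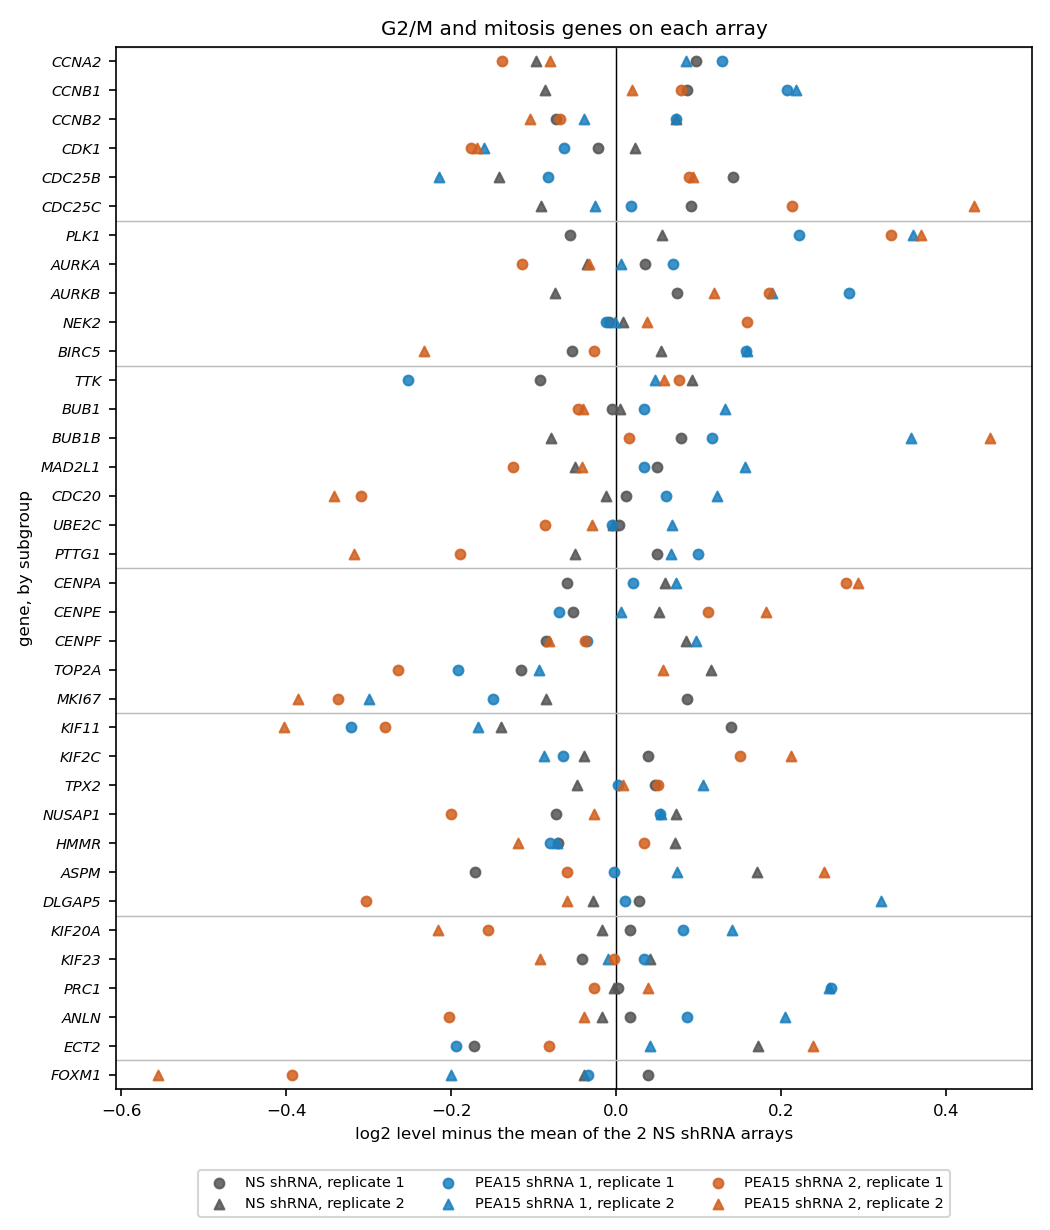
Level of each of the 36 genes on each array (horizontal axis, log2 level minus the mean of the 2 NS shRNA arrays), with rows ordered by role; grey is NS shRNA, blue PEA15 shRNA 1 and orange PEA15 shRNA 2, and circles and triangles are replicates 1 and 2. For FOXM1, CDC20 and PTTG1 both orange points lie left of all others, and for ECT2 the replicates of every group lie far apart.

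Among mitotic cyclins, CDK1 and its activators no change passed, and the medians over 6 genes were 0.0064 with shRNA 1 and -0.019 with shRNA 2. CCNB1, which encodes cyclin B1, the main mitotic partner of CDK1, read 8.93 and 8.76 (log2 level) under NS shRNA, 9.05 and 9.06 under shRNA 1 and 8.92 and 8.86 under shRNA 2. Both shRNA 1 arrays lay above the other 4, and the change of 0.21 ± 0.10 with shRNA 1 did not pass (adjusted p = 0.489), nor did that of 0.049 with shRNA 2. CCNA2, or cyclin A2, which acts from S phase to early mitosis, read 10.37 and 10.18, then 10.41 and 10.36 with shRNA 1, and 10.14 and 10.20 with shRNA 2. Its groups overlapped with the control in both comparisons. CDK1, the kinase itself, read 10.31 and 10.35 under NS shRNA, 10.27 and 10.17 under shRNA 1 and 10.15 and 10.16 under shRNA 2. All 4 hairpin arrays lay below both control arrays, at -0.11 ± 0.10 and -0.17 ± 0.10 (adjusted p = 0.725 and 0.397). Another CDK1 probe gave -0.16 and -0.085. On that probe the shRNA 2 arrays (7.99 and 8.22) overlapped the control arrays (8.13 and 8.25). CDC25C, a phosphatase that activates CDK1 at mitotic entry, read 7.58 and 7.40, 7.51 and 7.46, and 7.70 and 7.92 in the same order. The shRNA 2 arrays were the highest, at 0.32 ± 0.12 against the control (adjusted p = 0.214). CCNB2 and CDC25B lay between -0.15 and 0.091 in both comparisons with the control.

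Of the mitotic kinases and BIRC5, none passed against the control, and the medians over 5 genes were 0.16 with shRNA 1 and 0.099 with shRNA 2. PLK1, which promotes mitotic entry, centrosome maturation and cytokinesis, read 6.02 and 6.13 under NS shRNA, 6.29 and 6.43 under shRNA 1 and 6.40 and 6.44 under shRNA 2. All 4 hairpin arrays lay above both control arrays. The changes were 0.29 ± 0.10 (1.22-fold, adjusted p = 0.346) and 0.35 ± 0.10 (1.28-fold, adjusted p = 0.141), which did not pass. With quantile normalization and no background correction they were 0.14 and 0.17, and with shRNA 1 PLK1 then lay below AURKB (0.21) and BIRC5 (0.15). AURKB, the kinase of the chromosomal passenger complex that corrects faulty attachments, read 9.41 and 9.27, 9.62 and 9.53, and 9.52 and 9.46. Again the hairpin arrays were all above the control arrays, by 0.24 ± 0.10 and 0.15 ± 0.10 without passing. AURKA, the centrosomal Aurora kinase, read 10.38 and 10.31, 10.41 and 10.35, and 10.23 and 10.31. Its changes were 0.037 and -0.073. BIRC5, or survivin, the passenger subunit bound to AURKB, read 9.87 and 9.98, 10.09 and 10.09, and 9.90 and 9.70. The shRNA 1 arrays were above the control and the shRNA 2 arrays overlapped it, at 0.16 ± 0.11 and -0.13 ± 0.11 (adjusted p = 0.641 and 0.591). NEK2, a kinase of centrosome separation, was at -0.0068 and 0.099.

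Of the 7 genes of the spindle checkpoint and the APC/C, 6 were above 0 with shRNA 1 and 2 with shRNA 2, with medians of 0.083 and -0.057. CDC20, the APC/C activator that the checkpoint inhibits, read 12.39 and 12.37 under NS shRNA, 12.44 and 12.50 under shRNA 1 and 12.07 and 12.04 under shRNA 2. Its 3 groups did not overlap, and the replicates were close together. The change was 0.092 ± 0.09 with shRNA 1 (adjusted p = 0.778) and -0.33 ± 0.09 with shRNA 2, a ratio of 0.798 (adjusted p = 0.135), neither past the test. PTTG1, or securin, which holds separase inactive until the APC/C destroys it, read 11.77 and 11.67, 11.82 and 11.79, and 11.53 and 11.40. The order of the groups was that of CDC20, with changes of 0.083 ± 0.10 and -0.25 ± 0.10 (adjusted p = 0.816 and 0.251). MAD2L1, the checkpoint protein MAD2 that binds CDC20, read 10.61 and 10.51, 10.60 and 10.72, and 10.44 and 10.52, and its groups overlapped with the control. TTK, BUB1, BUB1B and UBE2C, which are checkpoint kinases, a checkpoint pseudokinase and an APC/C ubiquitin-conjugating enzyme, lay between -0.10 and 0.24 with shRNA 1 and between -0.057 and 0.23 with shRNA 2. BUB1B was at 0.24 ± 0.16 and 0.23 ± 0.16, but its shRNA 2 arrays differed by 0.44 from each other.

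Centromere and chromosome genes lay on both sides of the control. CENPA, the histone H3 variant that marks centromeres, read 8.66 and 8.78 under NS shRNA, 8.74 and 8.79 under shRNA 1 and 9.0 and 9.02 under shRNA 2. The shRNA 2 arrays were the highest, at 0.29 ± 0.10 (adjusted p = 0.19), while shRNA 1 was at 0.046. CENPE, a kinetochore kinesin, read 8.28 and 8.38, 8.26 and 8.34, and 8.44 and 8.51. Its shRNA 2 value was 0.15 ± 0.10 without passing. MKI67, which encodes the proliferation antigen Ki-67 that coats mitotic chromosomes, read 7.08 and 6.91, 6.85 and 6.70, and 6.66 and 6.61. All 4 hairpin arrays were below both control arrays, at -0.22 ± 0.11 (adjusted p = 0.49) and -0.36 ± 0.11, a ratio of 0.778 (adjusted p = 0.152). CENPF and TOP2A were at 0.031 and -0.14 with shRNA 1, and at -0.059 and -0.10 with shRNA 2.

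Of the 7 spindle genes, 4 were above 0 with shRNA 1 and 3 with shRNA 2, with medians of 0.036 and -0.042, and none passed. KIF11, the kinesin-5 motor that separates the spindle poles, read 8.70 and 8.42 under NS shRNA, 8.24 and 8.39 under shRNA 1 and 8.28 and 8.16 under shRNA 2. The control arrays differed by 0.28 from each other. All hairpin arrays lay below both, at -0.24 ± 0.13 and -0.34 ± 0.13 (adjusted p = 0.52 and 0.222). KIF2C, a microtubule-depolymerising kinesin of the centromere, read 8.88 and 8.80, 8.77 and 8.75, and 8.99 and 9.05. The hairpins lay on opposite sides of the control, at -0.076 and 0.18. DLGAP5, a spindle assembly protein, read 9.87 and 9.82, 9.86 and 10.17, and 9.54 and 9.79, at 0.17 ± 0.14 and -0.18 ± 0.14. TPX2, NUSAP1, HMMR and ASPM, which organise spindle microtubules, lay between -0.075 and 0.054 with shRNA 1 and between -0.11 and 0.096 with shRNA 2.

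Of the 5 cytokinesis genes, 4 were above 0 with shRNA 1 and 2 with shRNA 2, with medians of 0.11 and -0.047, and none passed. PRC1, which bundles the microtubules of the central spindle, read 11.01 and 11.01 under NS shRNA, 11.27 and 11.27 under shRNA 1 and 10.98 and 11.05 under shRNA 2. The shRNA 1 arrays stood apart from the other 4, by 0.26 ± 0.09 against the control (1.20-fold, adjusted p = 0.351), while shRNA 2 was at 0.0061. KIF20A, a kinesin of the central spindle, read 10.04 and 10.01, 10.10 and 10.16, and 9.87 and 9.81. Its groups did not overlap, and the changes were 0.11 ± 0.10 and -0.19 ± 0.10 (adjusted p = 0.724 and 0.361). ANLN, or anillin, a scaffold of the contractile ring, read 8.80 and 8.77, 8.87 and 8.99, and 8.58 and 8.75, in the same order of groups. KIF23, a subunit of the centralspindlin complex, and ECT2 lay between -0.076 and 0.079.

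FOXM1, the transcription factor that drives many G2/M genes, had the lowest value of the 36 with shRNA 2. It read 8.54 and 8.46 under NS shRNA, 8.47 and 8.30 under shRNA 1 and 8.11 and 7.95 under shRNA 2. Both shRNA 2 arrays lay below the other 4. The change with shRNA 2 was -0.47 ± 0.11, a ratio of 0.720 (95% confidence interval 0.600 to 0.863), and it did not pass over all rows (adjusted p = 0.0877). With shRNA 1 it was -0.12 ± 0.11 (adjusted p = 0.757). FOXM1 passed with shRNA 2 under 5 of 15 alternative settings, with adjusted p from 0.00577 to 0.311 over all 15, and CDC20 under 4 of 15 (0.00717 to 0.359). Without any 1 of the 6 arrays neither passed.

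The second question was whether the hairpins differed from each other. In the direct comparison of shRNA 2 with shRNA 1, 0 of the 36 genes passed, against 3.32% of all rows (530 rows), and 11 of 36 reached an unadjusted p under 0.05, against 22.4%. Of those 11, CDC25C, CENPA and KIF2C were higher with shRNA 2, and BIRC5, CDC20, PTTG1, DLGAP5, KIF20A, PRC1, ANLN and FOXM1 were lower. The arrays of the hairpins did not overlap for 27 of the 36 genes (75.0%), of which 20 were lower with shRNA 2, against 53.7% of all rows. The median over the 36 genes was -0.090, against -0.0062 over all rows, and 12 of 36 were above 0. CDC20 came nearest to the threshold, at -0.42 ± 0.09, or 0.749 of its shRNA 1 level (95% confidence interval 0.642 to 0.873, adjusted p = 0.0605), and ranked 701 of 15967 rows by the size of its test statistic. PTTG1 was at -0.34 ± 0.10 (adjusted p = 0.112), FOXM1 at -0.36 ± 0.11 (adjusted p = 0.12) and KIF20A at -0.30 ± 0.10 (adjusted p = 0.128). The interval lay within 1.5-fold for 32 of 36 genes, against 72.9% of all rows. The 4 others were CDC25C, CDC20, DLGAP5 and FOXM1. CDC20 passed this comparison under 5 of 15 alternatives (adjusted p from 0.000588 to 0.208), and no gene of the 36 passed without any 1 of the arrays. The count depended on the processing: with quantile normalization alone, with the submitters' processed values or with a trended prior, 7 of the 36 genes passed, all lower with shRNA 2 (BIRC5, CDC20, DLGAP5, FOXM1, KIF20A, PRC1 and PTTG1), among 1759, 1785 and 1653 rows called.

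By role, the median between hairpins was -0.25 over the 5 cytokinesis genes and -0.13 over the 7 checkpoint and APC/C genes, beside FOXM1 alone at -0.36. Mitotic kinases with BIRC5 and the genes of cyclins and CDK1 were at -0.083 and -0.082, spindle genes at -0.024 and centromere and chromosome genes at 0.039. These medians are descriptions with no test. Per array, the median over the 36 genes of the level minus each gene's mean was -0.017 and 0.0056 under NS shRNA, 0.018 and 0.059 under shRNA 1, and -0.079 and -0.046 under shRNA 2. The shRNA 2 arrays were the lowest 2, with no test made. Over the 6 arrays these medians ran from -0.079 to 0.059. Their SD within groups, pooled over the 3 groups of 2 arrays, was 0.024.

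**Figure D4:**
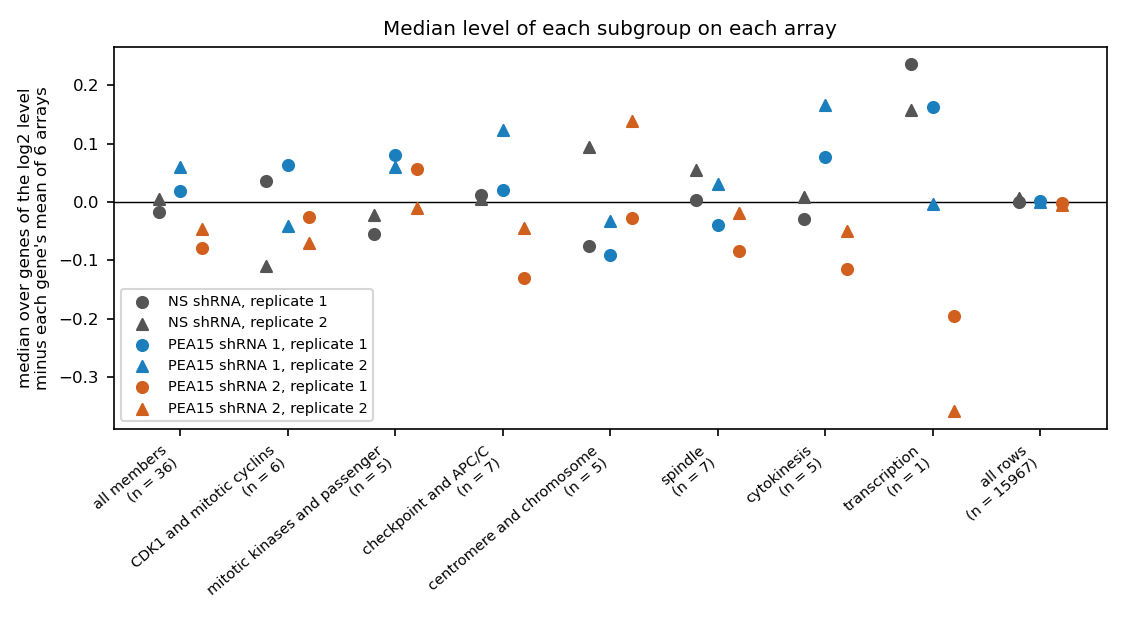
Median over the genes of each role (vertical axis, log2 level minus each gene's mean over the 6 arrays) on each array, for all 36 genes, the 7 roles and all 15967 rows; colours are the 3 hairpin groups, and circles and triangles replicates 1 and 2. Over the 36 genes both shRNA 2 arrays (-0.079 and -0.046) lie below the other 4, and over all rows the 6 arrays lie together near 0.

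Of the 36 genes, 16 had more than 1 probe, which gave 17 further probes. The further probes had the same sign as the brightest probe for 13 of 17 with shRNA 1, 14 of 17 with shRNA 2 and 13 of 17 between hairpins, with median gaps of 0.069, 0.10 and 0.077 (log2). For BIRC5, PTTG1 and DLGAP5 the further probes were also lower with shRNA 2 than with shRNA 1, at -0.29, -0.41 and -0.29, none past the test. For FOXM1 the further probe read 7.41 and 7.59 under NS shRNA, 7.36 and 7.31 under shRNA 1 and 7.46 and 7.14 under shRNA 2. That is -0.20 ± 0.14 with shRNA 2 against the control and -0.036 between hairpins, and the shRNA 2 arrays overlapped both other groups. For CENPA the further probe gave 0.036 with shRNA 2, for KIF11 -0.024, and the further CDC25C probes gave 0.16 and 0.077. Between hairpins the further CENPA probe gave -0.065, opposite in sign to its brightest probe, and the further CDC25C probes 0.27 and 0.028.

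The largest disagreements were in KIF23 and UBE2C, whose further probes read far lower than the probes of the main test. Changes of such dim probes depend on the background step, as given above for PLK1 and MKI67. The further KIF23 probe read 6.54 and 6.17 under NS shRNA, 6.36 and 6.50 under shRNA 1 and 5.79 and 5.60 under shRNA 2, so that both shRNA 2 arrays lay below the other 4. When each of the 19781 detected probes was tested as a row of its own, this probe was lower with shRNA 2 than with shRNA 1 (-0.74 ± 0.15, adjusted p = 0.0456). It was 1 call among the 53 probes, against 2.95% of all probes. Against the control it was at -0.66 ± 0.15 (adjusted p = 0.0776). The KIF23 probe of the main test read 9.19 and 9.28, 9.27 and 9.23, and 9.23 and 9.14, a difference of -0.059 between hairpins. The further UBE2C probe read 5.36 and 5.40 under NS shRNA, 6.09 and 5.72 under shRNA 1 and 5.94 and 5.83 under shRNA 2, at 0.52 ± 0.14 and 0.51 ± 0.14 without passing. The UBE2C probe of the main test was at 0.032 and -0.057. Which transcripts each probe of a gene captures was not analysed here.

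**Figure D5:**
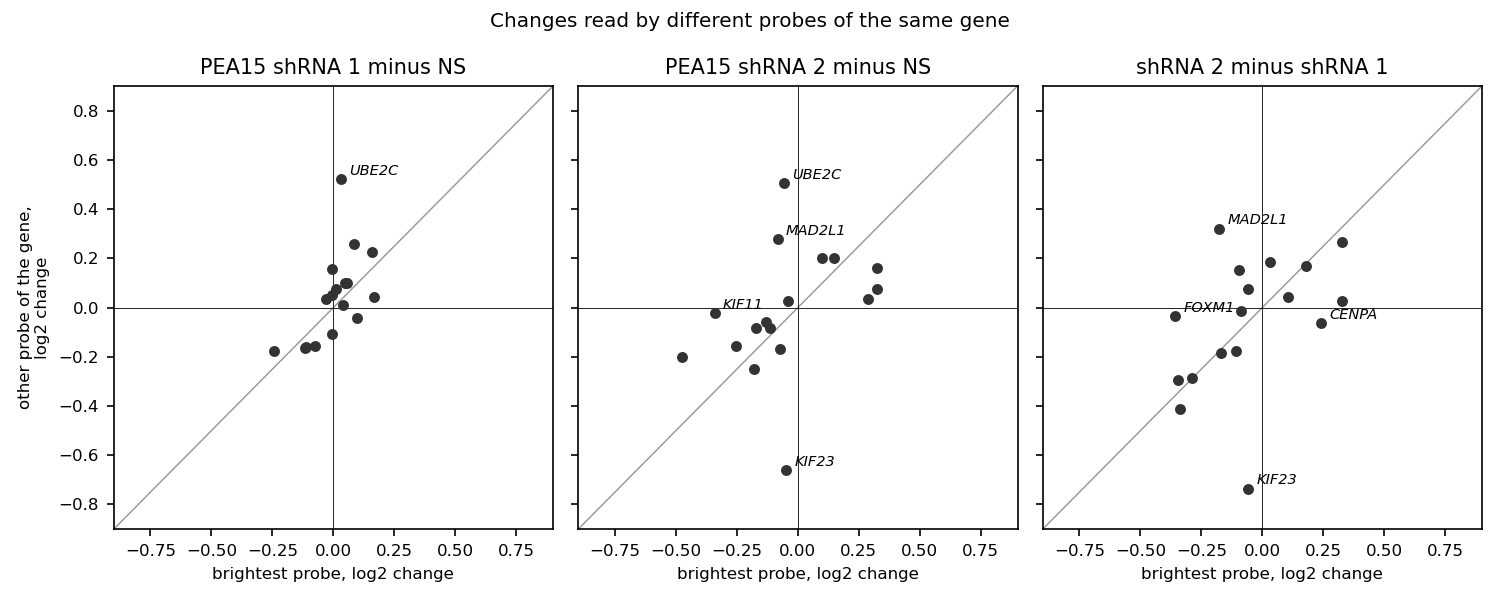
Change read by each further probe of a gene (vertical axis, log2) against that of the gene's brightest probe (horizontal axis, log2), for 17 further probes of 16 genes in each comparison; the diagonal marks equal change, and genes more than 0.3 apart are named. KIF23 lies farthest from the diagonal with shRNA 2, its further probe at -0.66 against the control and -0.74 between hairpins.

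Other genes of mitosis were read from lists of entry regulators, APC/C subunits, kinetochore partners, condensin and cohesin, further spindle and cytokinesis genes, and MuvB and DREAM subunits. Of 99 genes listed, 93 were tested. None passed with shRNA 1 (median 0.020, 6 at an unadjusted p under 0.05 by limma, against 11.7% of all rows) and none with shRNA 2 (median -0.013, 10 at an unadjusted p under 0.05, against 17.9%). The 93 genes, these medians and the 10 with shRNA 2 include MYBL2, which entered the test only through the shRNA 2 arrays. Between hairpins 2 of 93 passed (2.15%), both lower with shRNA 2, against 3.32% of all rows. CDC25A, the CDC25 phosphatase that also acts at the G1/S transition, read 8.83 and 8.86 under NS shRNA, 8.94 and 9.07 under shRNA 1 and 8.32 and 8.34 under shRNA 2. Its 3 groups did not overlap. It was lower with shRNA 2 than with shRNA 1 by a factor of 1.60 (-0.68 ± 0.10, adjusted p = 0.0168), and against the control at -0.52 ± 0.10 it did not pass (adjusted p = 0.0517, and past the threshold in 5 of 15 alternatives). ANAPC15, an APC/C subunit that helps turn over the checkpoint complex, read 8.11 and 8.06, 8.37 and 8.24, and 7.62 and 7.71. The difference between hairpins was -0.64 ± 0.10 (adjusted p = 0.0224), with the same order of groups. The CDC25A call was lost without any 1 of the PEA15 shRNA arrays, where the difference lay between -0.74 and -0.62. The ANAPC15 call was lost without any 1 of the 6 arrays. Its difference lay between -0.71 and -0.57 without a PEA15 shRNA array. Without an NS array it stayed at -0.64, in the same fit as that of the 2 PEA15 shRNA groups alone. Over all 15 alternatives CDC25A passed in 11 (lowest adjusted p = 5.95e-05) and ANAPC15 in 8 (lowest adjusted p = 0.000274). Both tallies count 1 fit repeatedly, as the 2 PEA15 shRNA groups alone and again without either NS array. CDC25A passed in that fit (limma adjusted p = 0.0454) and ANAPC15 did not (adjusted p = 0.0538).

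In the other 4 lists no gene passed in any comparison. SKA2, a kinetochore gene, was at 0.51 ± 0.10 with shRNA 1 (adjusted p = 0.213), and SGO2, a protector of centromere cohesion, at -0.52 ± 0.11 with shRNA 2 (adjusted p = 0.0715). NCAPG2, a condensin II subunit, differed by -0.46 ± 0.11 between hairpins (adjusted p = 0.0636). Of the MuvB and DREAM list, MYBL2, which encodes B-MYB, was detected on 1 of the NS arrays, 1 of the shRNA 1 arrays and both shRNA 2 arrays. It read 4.86 and 4.54, 4.87 and 4.77, and 5.30 and 5.47. It entered the test only through the shRNA 2 arrays, so no fold or p is given. FAM83D, a spindle protein, was at -0.36 ± 0.10 with shRNA 2 (adjusted p = 0.12), and TACC3, a spindle protein, at 0.30 ± 0.11 with shRNA 1 (adjusted p = 0.378).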

How the data were processed

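Total RNA was labelled as biotinylated cRNA and hybridised to Illumina arrays, per the labels' protocols. The authors deposited a table of mean intensity per probe, not normalized, with a detection p-value per probe and array, per the file headers. A second deposited table holds log2 values; the submitters' processing notes name lumi without a version, and these values served as an alternative. Background correction and normalization of the intensities used the function neqc (limma 3.58.1, R 4.3.3, offset 16). The 19781 probes detected (p under 0.05) on both arrays of some group were kept, with 1 probe a gene, that of highest mean. A linear model over all 6 arrays (3 residual and 4.54 prior degrees of freedom) gave the 3 comparisons. Alternatives numbered 15, and not all were distinct. In each comparison, leaving out an array of the group not compared gave the same fit as the compared groups alone. Tallies out of 15 therefore count that fit more than once. The scripts were tested on simulated data. Members, lists and tests were chosen with earlier results of these data known. Members given array by array are those with the 3 largest test statistics of each role, plus CCNB1, CDK1, PLK1, AURKA, MKI67 and FOXM1; for the further lists up to 3 genes with the smallest adjusted p could be named. Members named beyond these, and single further probes, were chosen after their values were seen. The number of arrays limits the precision.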

Additional observations from a re-analysis of the deposited data

Results flagged for a closer look

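No array group was large enough for a test of single outlying arrays. The effects of the hairpins differed past the threshold of limma's test (adjusted over 15967 rows) for 2 genes named above, neither of them among the 36. CDC25A differed by -0.68 between shRNA 2 and shRNA 1 (adjusted p = 0.0168), being 0.16 above the control with shRNA 1 and 0.52 below it with shRNA 2 (-0.52). ANAPC15 differed by -0.64 (adjusted p = 0.0224), with 0.22 for shRNA 1 and -0.42 for shRNA 2 against the control. Against the control neither passed in the fit reported. With shRNA 2 each passed in 5 of 15 alternatives (adjusted p from 0.00123 to 0.203 for CDC25A and from 0.0135 to 0.292 for ANAPC15), and with shRNA 1 in 0 of 15.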

How the results depend on the processing

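With shRNA 1 the count of the 36 genes past the test was 0 under all 15 alternatives. With shRNA 2 it was 0 in the fit reported, where 271 of 15967 rows were called. With quantile normalization alone it was 3 (CDC20, CENPA and FOXM1), among 1003 rows called. With the submitters' processed values, offset 50 and a trended prior it was 2 (CDC20 and FOXM1 each time), among 1004, 829 and 896 rows. With detection p under 0.01 on all arrays it was 1 (FOXM1), among 592 of 12278 rows. Between hairpins it was 7 with quantile normalization alone, the submitters' values and a trended prior, among 1759, 1785 and 1653 of 15967 rows. These 7 were BIRC5, CDC20, DLGAP5, FOXM1, KIF20A, PRC1 and PTTG1, all lower with shRNA 2. With offset 50 it was 4, among 1508 rows, and with the stricter detection filter 1 (CDC20), among 1139 of 12278. With every probe tested it was 1 (the further KIF23 probe), among 583 of 19781. It was 0 without any 1 array, with no filter on detection, and in fits of 2 groups alone; the cause of these differences was not tested. Over the whole table the calls ranged from 0 to 162 with shRNA 1 (3 in the fit reported), 17 to 1004 with shRNA 2 (271) and 35 to 1785 between hairpins (530). Without 1 array the median over the 36 genes ranged from 0.015 to 0.067 with shRNA 1, from -0.064 to -0.027 with shRNA 2 and from -0.10 to -0.077 between hairpins, where it was -0.065 with every probe tested. Of 945 alternative values of the 21 genes given array by array, 36 gained a call, 8 changed sign without a call on either side and 0 reversed a call. The labels number the replicates without saying whether the numbers pair the samples. Differences between replicates correlated across groups with r = -0.017, 0.045 and 0.078 over all rows. Over the 36 genes r was 0.305, 0.231 and 0.461. Of these genes 12 (33.3%) had the same sign in all 3 groups, against 27.6% of all rows, ECT2, ASPM and TOP2A among the 12. With the replicate block 0 of the 36 genes passed in each comparison, while rows called were 0, 142 and 333.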
